A study of Mus musculus with 28 samples.

Results

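Core mTOR pathway genes were examined in hippocampal microglia of 5xFAD and wild-type (WT) mice as a set of 10, chosen by name without the ribosomal proteins: Mtor, Rptor, Rictor, Mlst8, Tsc1, Tsc2, Rheb, Rps6kb1, Eif4ebp1 and Akt1. They are 10 of the 48587 gene rows of the count table, and all 10 were among the 15298 genes with enough counts to be tested. 5xFAD mice carry mutant human APP and PS1 transgenes, driven by the neuronal Thy-1 promoter, and were heterozygous males on C57BL/6J, so microglia are not the cells in which the transgenes are driven. All mice were 16 weeks old. They were kept under specific pathogen-free (SPF) conditions (5 WT, 3 5xFAD), kept germ-free (GF; 4 WT, 5 5xFAD), or kept SPF and given antibiotics (ABX) in the drinking water for 8 weeks (5 WT, 6 5xFAD). The antibiotics were vancomycin, cefoxitin, gentamicin and metronidazole. Microglia were sorted by flow cytometry as viable CD11b+CD45lo cells outside a dump gate that held Ly6C and Ly6G among other markers, which is meant to remove monocytes and neutrophils, and 1 library was made per mouse. The GF mice came from another facility than the SPF and ABX mice, so GF housing and facility cannot be told apart. The study asked how a missing or depleted microbiota alters the microglial transcriptome in this model, and mTOR signaling was among the pathways it looked at.

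mTOR is a serine/threonine kinase that couples cell growth to nutrients and growth factors. It works in a pair of complexes that share the kinase and its partner mLST8: mTORC1, defined by raptor (Rptor), promotes protein synthesis by phosphorylating S6 kinase (Rps6kb1) and the translational repressor 4E-BP1 (Eif4ebp1), and mTORC2, defined by rictor (Rictor), phosphorylates AKT. AKT1 in turn inhibits the TSC1/TSC2 complex, which keeps the small GTPase RHEB, the direct activator of mTORC1, in its inactive form. In microglia the pathway is known for its link, downstream of TREM2, to energy metabolism around amyloid plaques. Most of this regulation is by phosphorylation and location in the cell, which transcript counts do not show.

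The sequences before the transcription start are shown for the members called in more than 1 comparison, so far as RefSeq (GRCm38.p6) had an entry. An entry was found for 9 of the 10 members, all but Eif4ebp1. Each line gives 130 bases, 110 before and 20 after the RefSeq start, 5′ to 3′ on the gene's strand. Capitals mark a GC box (GGGCGG) or an E-box (CACGTG), searched on both strands together with a CCAAT box, searched by its name's letters, a TATA box (TATAAA) and the core of a CRE (TGACG), and the matches shown do not overlap.
Rptor, chr11:119602795-119602924, plus strand: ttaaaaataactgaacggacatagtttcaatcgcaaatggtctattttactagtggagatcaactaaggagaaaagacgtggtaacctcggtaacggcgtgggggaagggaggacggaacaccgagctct
Rheb, chr5:24842342-24842471, minus strand: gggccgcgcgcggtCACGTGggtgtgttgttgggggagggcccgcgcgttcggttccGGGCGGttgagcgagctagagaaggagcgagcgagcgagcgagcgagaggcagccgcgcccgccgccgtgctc
Akt1, chr12:112674865-112674994, minus strand: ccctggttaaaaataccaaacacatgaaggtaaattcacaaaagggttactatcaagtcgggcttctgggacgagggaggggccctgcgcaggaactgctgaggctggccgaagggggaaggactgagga
Within the 300 bases held by RefSeq (250 before, 50 after the start), Rheb had a GC box, an E-box and a CRE core, Rptor had a CRE core, and Akt1 had none of the motifs. Among 32851 promoters of that length, 35.7% held a GC box, 7.15% an E-box, 20.8% a CRE core, 37.4% a CCAAT box and 13.6% a TATA box. A match to these letters describes the sequence and does not show a bound site.

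Libraries held 14441610 to 29977395 counts in genes. The microglial markers P2ry12, Tmem119, Cx3cr1, Sall1, Siglech and Csf1r were detected in every group, and their summed level was 25799 to 33070 CPM (gene counts scaled to library size by TMM) in GF 5xFAD and 38979 to 41736 CPM in SPF WT. Neutrophil markers summed to 56.5 to 221 CPM in the 3 SPF 5xFAD mice and 117 CPM in the ABX 5xFAD mouse FAD_ABX_1151. They stayed at or below 0.177 CPM in each group of WT mice and in GF 5xFAD, with 6 of 7 markers at 0 in each WT group. Markers of border-associated macrophages summed to 32.8 to 242 CPM in ABX 5xFAD and 3.74 to 5.90 CPM in ABX WT, and to 15.3 to 28.3 CPM in SPF 5xFAD and 3.48 to 8.09 CPM in SPF WT, so that genotypes were apart in both, while GF WT (10.7 to 41.9 CPM) and GF 5xFAD (9.43 to 77.0 CPM) overlapped. The library descriptions follow 3 naming styles. In the genotype comparisons within SPF and within ABX mice, in GF against SPF of either genotype and in ABX against GF WT, no mouse of one group has a style found in the other, so the styles cannot be told apart from these groups. GF WT and GF 5xFAD share a style, as do ABX WT and SPF WT. Of the ABX 5xFAD mice, 5 have the style of the GF mice and FAD_ABX_1151 that of SPF 5xFAD. In bulk libraries, a lower share of cells that express a gene and less RNA per cell cannot be told apart.

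All 10 members were expressed in each of the 28 libraries, with at least 141 counts (Mlst8). Per kb of gene, which allows levels to be compared between genes, Akt1 was the most abundant at 74.6 ± 10.9 CPM per kb (mean ± SD over 28 mice), which lay at percentile 96.3 of the genes tested. Rptor followed at 19.8 ± 3.28 CPM per kb, and the highest mouse for Rptor (26.7) lay below the lowest for Akt1 (49.9). Eif4ebp1 (13.3 ± 4.43), Rheb (12.6 ± 1.54) and Tsc2 (12.6 ± 2.10) formed the next level. Rps6kb1 (7.92 ± 0.889) and Rictor (7.76 ± 1.01) came after them, then Mlst8 (5.10 ± 1.30), Tsc1 (4.16 ± 0.913) and Mtor (3.51 ± 0.908 CPM per kb, percentile 47.9). From Rptor down, each gene's range over mice overlapped that of its neighbor in this order. The length used was that given with the counts. For Rictor (9311 bases), Tsc2 (6018) and Mlst8 (3366) it is shorter than their exon bases in GENCODE M21 (16930, 9620 and 4435). The places of Rictor, Tsc2 and Mlst8 in the order are therefore less certain. The transcript of the kinase itself was the least abundant of the set per kb. Over all mice, Eif4ebp1 had the widest spread (coefficient of variation 33.3%) and Rps6kb1 the narrowest (11.2%).

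**Figure D1:**
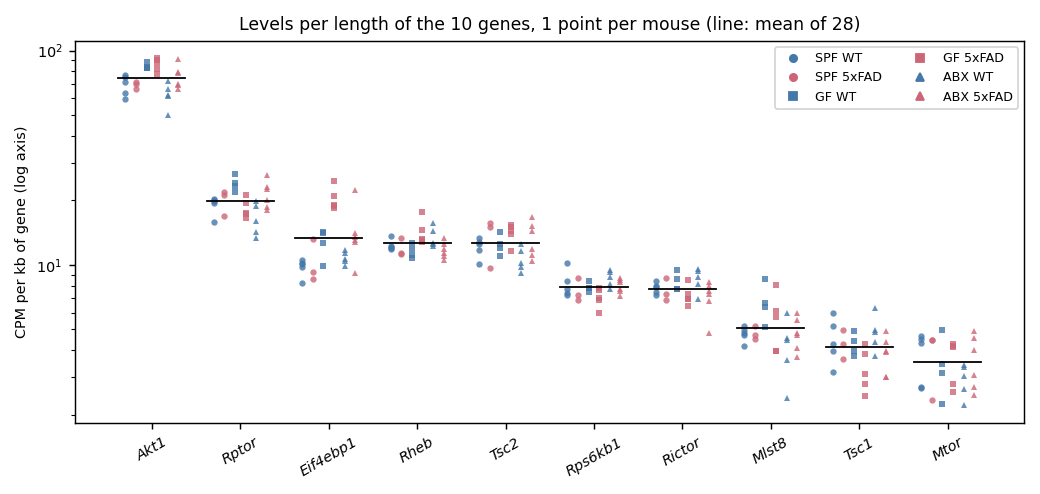
Level of each of the 10 genes in CPM per kb of gene (log axis), 1 point per mouse, with shape for housing, color for genotype and a line at the mean of 28 mice. Akt1 stood above the others in every mouse, and the GF 5xFAD mice lay at the upper end for Eif4ebp1.

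Differences between groups were found for single members. An F test over the 6 groups called 3 of 10 members, against 33.2% of all genes tested: Eif4ebp1 (adjusted p = 4.33e-05), Akt1 (0.00143) and Rptor (0.00907), all by edgeR's quasi-likelihood test with Benjamini-Hochberg adjustment over 15298 genes, which gave all adjusted p-values below unless another tool is named. Between 5xFAD and WT mice, no member was called under SPF conditions (background 4.57% of genes). None of the 10 had an unadjusted p under 0.05 there, and neither limma's voomWithQualityWeights nor DESeq2 called one, although voomWithQualityWeights called 14.1% of all genes there. Among the 3 SPF 5xFAD mice, FAD_SPF_1144 differed more from FAD_SPF_1146 and FAD_SPF_1148 (chi-square per degree of freedom of their counts 29.0 and 25.9) than these did from each other (6.61), and no member was called without it either. Under GF conditions 3 of 10 were called (background 15.6%): Eif4ebp1 and Rheb were higher in 5xFAD and Rptor was lower. In ABX mice 2 of 10 were called (background 14.4%), and both, Rptor and Akt1, were higher in 5xFAD. With library size alone as scaling, 1 was called higher there (Rptor) and 2 lower (Rheb, -0.28, adjusted p = 0.0343, and Rictor, -0.34, adjusted p = 0.0340), and with GC content offsets none was called. For 5xFAD against WT averaged over the 3 conditions, 1 of 10 was called (background 25.1%), Eif4ebp1. Each of these counts was within 2 genes of what the background share gives for 10 genes, so nothing is read from the counts about the members as a set. The median log2 fold change of the 10 was -0.01 under SPF, -0.07 under GF and 0.24 in ABX mice, beside -0.03, -0.03 and -0.01 for all genes tested. The median in ABX mice was 0.13 with GC content offsets and 0.12 without FAD_ABX_1151 and FAD_ABX_1482, and that under GF ran from -0.19 with library size alone to 0.01 with gene length offsets.

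**Figure D2:**
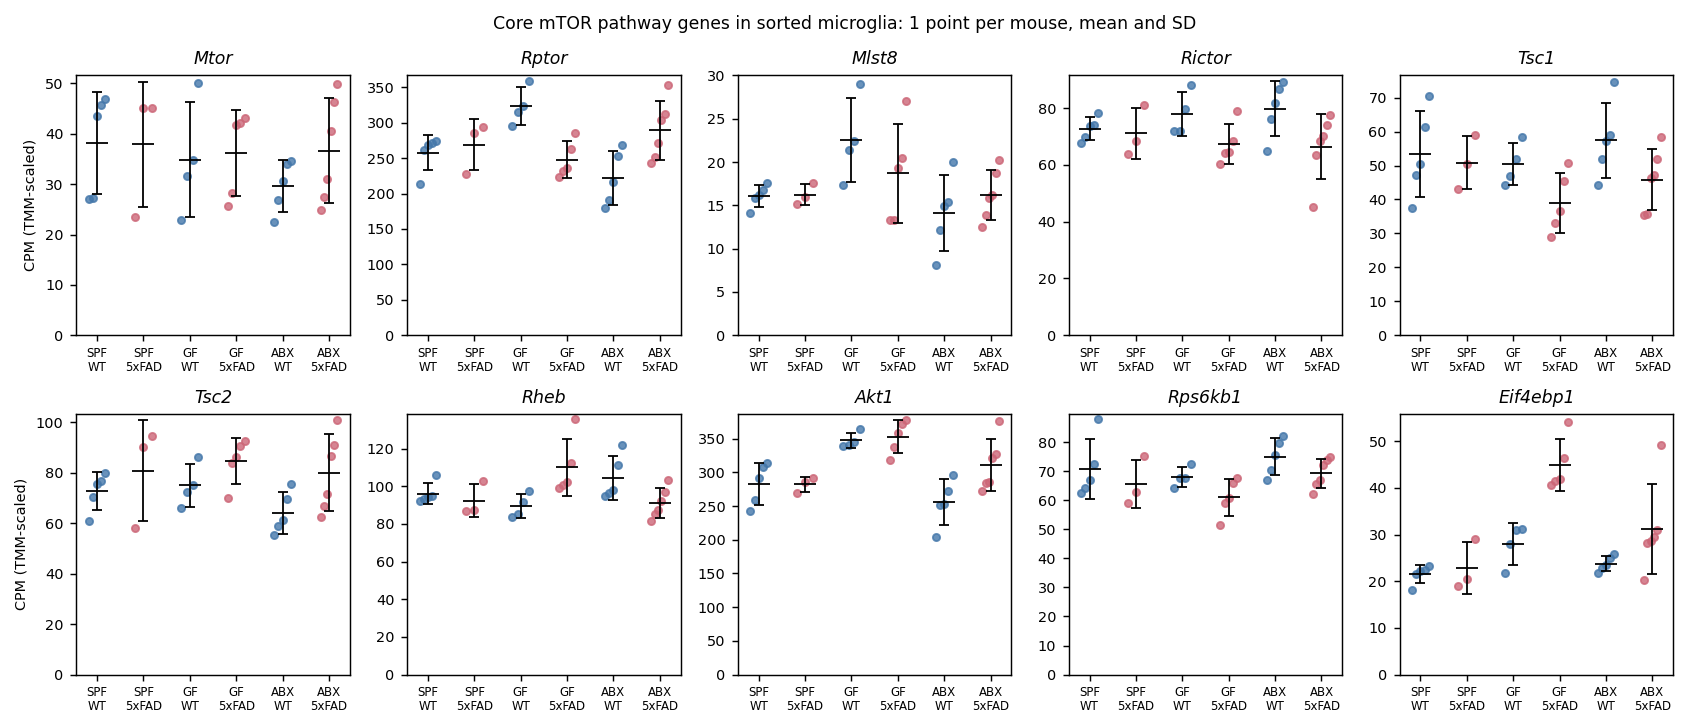
Level of each member in CPM (axis from 0), 1 point per mouse in 6 groups, with the mean and SD as bars. The 5 GF 5xFAD mice were above all GF WT mice for Eif4ebp1 and Rheb and below all of them for Rptor.

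**Figure D3:**
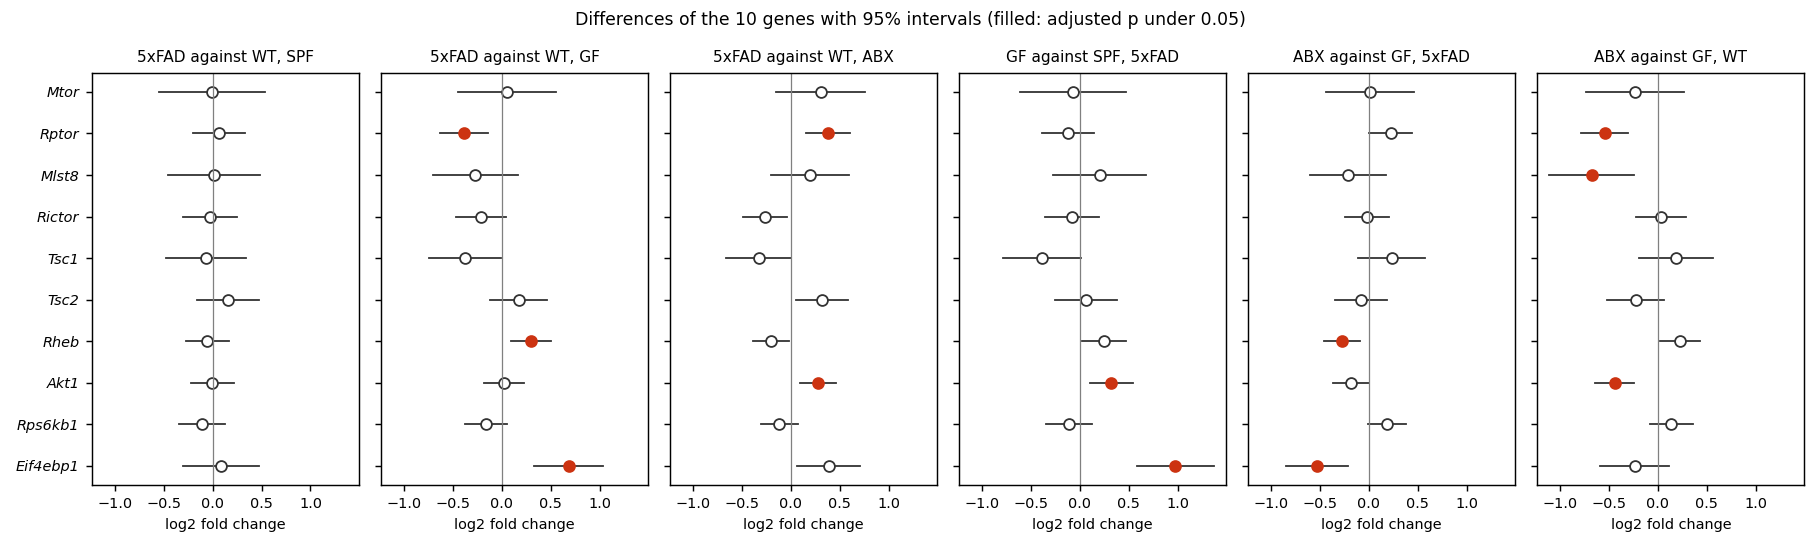
Log2 fold change of each member in 6 comparisons, with 95% intervals, where filled points have an adjusted p under 0.05. The 10 points lie near 0 for 5xFAD against WT under SPF, and the farthest point from 0 is Eif4ebp1 in GF against SPF 5xFAD mice (0.98).

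Eif4ebp1 (chr8:27260329-27276674, plus strand), which encodes the repressor of cap-dependent translation that mTORC1 inactivates, had the largest difference of the set in any comparison, that of GF against SPF 5xFAD mice. In GF 5xFAD mice its level was 41.8, 41.5, 46.3, 54.0 and 40.7 CPM. In GF WT mice it was 21.7, 31.0, 31.2 and 27.9 CPM. Every GF 5xFAD mouse was above every GF WT mouse, a 1.61-fold difference in the fit (log2 0.68 ± 0.17 SE, adjusted p = 0.00617), and an exact two-sided permutation test gave p = 0.00794, the smallest that 5 against 4 mice allow. SPF mice had 29.1, 18.9 and 20.4 CPM in 5xFAD and 21.5, 22.1, 18.2, 23.2 and 22.3 CPM in WT. All 8 were below the GF 5xFAD mice, and they overlapped the GF WT mice. The SPF genotypes overlapped, with a log2 difference of 0.09 (95% interval -0.30 to 0.47). Between GF and SPF 5xFAD mice the groups did not overlap and the fold was 1.97 (log2 0.98 ± 0.19, adjusted p = 0.00272), and the exact permutation p = 0.0179 is the smallest for 5 against 3. In that comparison 2 of 10 members were called, both higher in GF mice, the other being Akt1 (background 12.8%, with 6.97% of genes higher).

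In ABX WT mice Eif4ebp1 was at 24.9, 25.9, 22.8, 23.5 and 21.8 CPM, and in ABX 5xFAD mice it ran from 20.2 to 49.2 CPM with a median of 29.1. Of the 6 ABX 5xFAD mice, 5 were above all ABX WT mice and FAD_ABX_1151 was below them. The difference in ABX mice was 0.39 (95% interval 0.07 to 0.71) with an adjusted p of 0.0988, which became 0.0221 without FAD_ABX_1151 and 0.116 without both FAD_ABX_1151 and FAD_ABX_1482. Against GF 5xFAD mice, ABX 5xFAD mice differed by a log2 fold change of -0.53 ± 0.15 (adjusted p = 0.0256), and 5 of the 6 lay below the lowest GF mouse (exact permutation p = 0.0195). That call ended on leaving out any 1 of 5 mice: FAD_GF_184, FAD_GF_185, FAD_ABX_1151, FAD_ABX_1452 or FAD_ABX_1453 (adjusted p = 0.0518 to 0.0812), and with library size alone (0.0510) or only the groups compared (0.145). Between the same groups the summed markers of border-associated macrophages had medians of 145 CPM in ABX and 21.5 CPM in GF mice, the microglial sum had medians of 34164 and 26857 CPM, and the sum of the astrocyte list, mostly Slc1a3, did not overlap (212 to 302 against 155 to 189 CPM). Their part in the differences of Eif4ebp1 and Rheb was not tested. ABX against GF 5xFAD called 2 of 10 members, both lower in ABX mice, the other being Rheb (background 10.6%, with 6.07% of genes lower). ABX against SPF 5xFAD mice called none, as for all genes (background 0%), and voomWithQualityWeights and DESeq2 called no member either. There Eif4ebp1 was the only member with an unadjusted p under 0.05 (log2 0.45, 95% interval 0.07 to 0.83, adjusted p = 0.658).

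Averaged over SPF, GF and ABX, Eif4ebp1 was 1.31-fold higher in 5xFAD mice (log2 0.39 ± 0.10, adjusted p = 0.00424). Its difference between genotypes was not shown to depend on housing: the interaction was 0.60 for GF against SPF (95% interval 0.07 to 1.12, adjusted p = 0.524), 0.30 for ABX against SPF (-0.20 to 0.80, adjusted p = 0.858) and -0.30 for ABX against GF (-0.77 to 0.18, adjusted p = 0.581). The GF 5xFAD mice, where Eif4ebp1 was highest, also had the lowest median of summed microglial markers (26857 CPM, beside 32691 CPM in SPF 5xFAD), and the part of this in the result was not tested. GF and SPF 5xFAD mice also differed in facility, and neutrophil markers, found in all 3 SPF 5xFAD libraries although the dump gate held Ly6G and Ly6C, were at or below 0.0495 CPM in GF 5xFAD mice. Ly6g itself was at or below 0.266 CPM in each library. The sum of the astrocyte list, mostly Slc1a3, was also apart between GF and SPF 5xFAD mice (155 to 189 against 223 to 239 CPM). So was that of the endothelial list, mostly Pecam1 (9.42 to 21.4 against 23.9 to 29.7 CPM). The part of these markers in the differences of Eif4ebp1 and Akt1 between these groups was not tested.

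Rptor (chr11:119602905-119899576, plus strand), the scaffold that brings substrates to mTORC1, moved in opposite directions with genotype in GF and ABX mice. GF WT mice had 359, 315, 324 and 295 CPM. GF 5xFAD mice had 236, 232, 223, 263 and 286 CPM. The groups did not overlap, and the level in 5xFAD was 0.767 of that in WT (log2 -0.38 ± 0.12, adjusted p = 0.0269, exact permutation p = 0.0159). ABX WT mice had 191, 217, 180, 268 and 253 CPM, whereas the 6 ABX 5xFAD mice ran from 244 to 353 CPM with a median of 288. Of these 6, 4 were above all ABX WT mice, and the fold was 1.30 (log2 0.38 ± 0.11, adjusted p = 0.0159, exact permutation p = 0.0281). SPF WT mice (214 to 274 CPM) and SPF 5xFAD mice (227 to 294 CPM) overlapped, with a difference of 0.06 (95% interval -0.20 to 0.33).

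The difference between the GF and ABX genotype effects on Rptor was itself tested. The interaction was 0.77 ± 0.16 on the log2 scale (adjusted p = 0.0157), and Rptor was the 1 of 10 members called there (background 1.76%). It stayed past the threshold under each alternative setting and on leaving out each of the 28 mice in turn (adjusted p = 0.00708 to 0.0415). Each of the separate differences was less stable. The GF call ended without WT_GF_199 (adjusted p = 0.102), FAD_GF_181 (0.0583), FAD_GF_182 (0.0615) or FAD_GF_184 (0.0682), and the ABX call ended without WT_ABX_909 (0.0531), WT_ABX_911 (0.0629) or FAD_ABX_1460 (0.0511). The GF call also ended with gene length offsets (-0.22, adjusted p = 0.208), and the ABX call with GC content offsets (0.24, adjusted p = 0.114) and with only the groups compared (0.39, adjusted p = 0.0575). The interactions of GF and of ABX with SPF called no member and no gene (background 0% for both), nor did voomWithQualityWeights or DESeq2 call a member, while 3 and 1 of the 10 had an unadjusted p under 0.05. The values for Rptor were -0.44 (95% interval -0.81 to -0.08) and 0.32 (-0.03 to 0.67).

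In WT mice the GF group had the highest Rptor levels. Against ABX WT mice the groups did not overlap, with a log2 difference (ABX minus GF) of -0.54 ± 0.12 (adjusted p = 0.00705, exact permutation p = 0.0159), a call that held on leaving out each mouse and ended with GC content offsets (-0.32, adjusted p = 0.115). GF against SPF WT gave 0.33 (95% interval 0.08 to 0.57) with an adjusted p of 0.146. There the background was 1.62%, no member was called, and 4 had an unadjusted p under 0.05. In that comparison voomWithQualityWeights called 2 members (Eif4ebp1 and Akt1) beside 10.7% of all genes, and DESeq2 called 1 (Akt1) beside 4.71%. Rptor itself was called there with gene length offsets (0.49, adjusted p = 0.0204) and with only the groups compared (0.34, adjusted p = 0.0207). These comparisons and that of genotype under GF all use the same 4 GF WT mice. Markers of border-associated macrophages were also apart between ABX WT and GF WT mice (given above), and so were summed oligodendrocyte markers (158 to 164 against 171 to 187 CPM), most of which is Cnp, Mbp and Mag, while Mog was at or below 1.14 CPM in each library. The part of these markers in the differences of Rptor, Akt1 and Mlst8 between the groups was not tested. ABX against SPF WT called no member and no gene (background 0%), no member had an unadjusted p under 0.05 or was called by the other tools, and for Rptor the difference was -0.22 (-0.45 to 0.01). Of Rptor's exon bases, 0.624% are shared with Rptoros, and the library kit does not mark the strand.

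Mtor and Mlst8 encode the kinase and the partner that both complexes share. Mtor (chr4:148448611-148557683, plus strand) was called in no comparison. Its group means lay between 29.7 CPM (ABX WT) and 38.2 CPM (SPF WT), with mice from 22.4 to 50.2 CPM. All 6 groups overlapped, and in ABX WT no mouse was above 34.6 CPM. Its widest difference in the comparisons of 5xFAD with WT was 0.30 in ABX mice (95% interval -0.15 to 0.76), an interval that includes a change of the size seen for Rptor. Mlst8 (chr17:24473550-24479078, minus strand) was called only for ABX against GF WT, where 3 of 10 members were called, all lower in ABX mice (Mlst8, Rptor and Akt1; background 6.88%, with 4.48% of genes lower). Mlst8 had 8.07, 20.0, 12.2, 15.4 and 15.0 CPM in ABX WT and 22.4, 17.4, 21.4 and 29.1 CPM in GF WT. The groups overlapped by 1 mouse, and the difference was -0.67 ± 0.21 (adjusted p = 0.0497, exact permutation p = 0.0397), a call that ended on leaving out any of 21 of the 28 mice (adjusted p = 0.0533 to 0.183) and under 6 of the alternative settings, among them GC content offsets (-0.51, adjusted p = 0.238). Mlst8 had the lowest counts of the set and shares 22.5% of its exon bases with Bricd5, so its counts are less certain.

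Rictor (chr15:6708381-6800398, plus strand), the defining subunit of mTORC2, was called in no comparison by edgeR as reported. The mice ran from 45.0 to 89.3 CPM, with group means of 66.4 CPM (ABX 5xFAD) to 79.8 CPM (ABX WT). Its difference between 5xFAD and WT was -0.03 (95% interval -0.31 to 0.24) under SPF, -0.21 (-0.47 to 0.04) under GF and -0.26 (-0.49 to -0.04) in ABX mice, and averaged over the conditions -0.17 (-0.32 to -0.02, adjusted p = 0.0849). That average was called with voomWithQualityWeights (-0.19, adjusted p = 0.0162) and with library size alone (-0.25, adjusted p = 0.00748). The single lowest value, 45.0 CPM, was that of FAD_ABX_1482.

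Among the brake on mTORC1 and its target, edgeR as reported called Tsc1 and Tsc2 in no comparison and Rheb in 2. Tsc1 (chr2:28641228-28691167, plus strand) had its lowest group mean in GF 5xFAD (38.9 ± 8.94 CPM) and its highest in ABX WT (57.4 ± 11.1 CPM). Its 5xFAD difference was -0.07 (95% interval -0.48 to 0.34) under SPF, -0.37 (-0.75 to -0.00172) under GF and -0.33 (-0.66 to 0.01) in ABX mice, and averaged over conditions -0.26 (adjusted p = 0.0747). This average was called with library size alone (-0.34, adjusted p = 0.0190), with GC content offsets (-0.29, 0.0422), without FAD_ABX_1151 and FAD_ABX_1482 (-0.30, 0.0407) and on leaving out WT_SPF_912, FAD_GF_184 or FAD_ABX_1151 (0.0358 to 0.0442), and it was not with voomWithQualityWeights, DESeq2, RLE size factors, gene length offsets or either change of the low-count filter (0.0689 to 0.169). For GF against SPF 5xFAD, voomWithQualityWeights called Tsc1 lower (-0.52, adjusted p = 0.0351), where edgeR gave -0.38 (0.211). Tsc2 (chr17:24595937-24632629, minus strand), which holds the GTPase-activating domain of the complex, had values of the opposite sign: 0.15 (-0.16 to 0.47) under SPF, 0.17 (-0.12 to 0.47) under GF and 0.32 (0.05 to 0.59) in ABX mice, with an average of 0.22 (0.05 to 0.39, adjusted p = 0.0540). That average was called with RLE size factors (adjusted p = 0.0451), at least 10 counts in every library (0.0279), voomWithQualityWeights (0.00618), DESeq2 (0.0323) and gene length offsets (0.0126), and on leaving out any of 7 mice (0.00833 to 0.0455). It was not called with library size alone (0.13, adjusted p = 0.239), GC content offsets (0.17, 0.139), no low-count filter (0.0735) or without FAD_ABX_1151 and FAD_ABX_1482 (0.0748). Tsc2 shares 7.20% of its exon bases with the neighboring Pkd1.

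Rheb (chr5:24802823-24842624, minus strand; RefSeq places its start inside this interval, where the E-box and GC box shown above lie) had 83.6, 85.5, 91.7 and 97.3 CPM in GF WT mice. GF 5xFAD mice had 136, 102, 99.1, 112 and 101 CPM. All 5 were above all 4 WT mice, by 1.23-fold (log2 0.30 ± 0.10, adjusted p = 0.0413, exact permutation p = 0.0159). Summed microglial markers were also apart between these groups, at 25799 to 33070 CPM in 5xFAD against 37033 to 41515 CPM in WT. The sums of the astrocyte list (155 to 189 against 228.5 to 298 CPM) and the endothelial list (9.42 to 21.4 against 28.6 to 35.5 CPM) were lower in 5xFAD as well, but each is mostly 1 gene. Slc1a3 was at 151 CPM or more in each of the 28 libraries, and no other gene of the astrocyte list (Gfap, Aqp4, Aldoc, Slc1a2, Gja1) was above 6.79 CPM in any. Pecam1 ran from 5.36 to 52.0 CPM, Flt1 reached 4.84 CPM, and Cldn5 and Cdh5, defining markers of endothelial cells, stayed at or below 1.71 CPM. The part of these sums in the GF differences of Rheb, Eif4ebp1 and Rptor was not tested. In ABX 5xFAD mice Rheb ran from 81.5 to 103 CPM with a median of 89.8, and 5 of the 6 were below the lowest GF 5xFAD mouse. The difference, ABX against GF, was -0.27 ± 0.09 (adjusted p = 0.0488, exact permutation p = 0.0173). Both calls were near the threshold: the first ended on leaving out any of 10 of the 28 mice (adjusted p = 0.0503 to 0.143) and the second any of 21 (0.0515 to 0.199), among them FAD_ABX_1151 (-0.25, adjusted p = 0.109), without which both groups share a naming style. The first also ended with library size alone (0.17, adjusted p = 0.247), no low-count filter, voomWithQualityWeights or only the groups compared (0.0527 to 0.144), and the second with these and RLE size factors (0.0548 to 0.230). Within ABX mice the sign was the other way, -0.20 (95% interval -0.38 to -0.02, adjusted p = 0.144), with a median of 98.2 and up to 122 CPM in WT. The interaction of ABX and GF was -0.50 (adjusted p = 0.0510), and it was called by DESeq2 (adjusted p = 0.0148) and voomWithQualityWeights (0.0443).

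Akt1 (chr12:112653821-112674884, minus strand), the kinase that links growth factor receptors to the TSC complex, had its highest group means in GF mice of both genotypes, 347 CPM in WT and 353 CPM in 5xFAD. GF WT mice had 340.3, 339, 346 and 364 CPM and GF 5xFAD mice 358, 372, 378, 318 and 338 CPM. These groups overlapped (log2 0.02, 95% interval -0.18 to 0.22). SPF 5xFAD mice had 270.0, 286 and 291 CPM, all below the GF 5xFAD mice, and the difference GF against SPF was 0.32 ± 0.11 (adjusted p = 0.0475, exact permutation p = 0.0179, the smallest possible), a call that ended on leaving out any of 19 of the 28 mice (adjusted p up to 0.147), with GC content offsets (0.10, adjusted p = 0.517), library size alone (0.141) and no low-count filter (0.143). ABX WT mice had 254, 252, 205, 272 and 297 CPM, below every GF WT mouse. The difference ABX against GF was -0.44 ± 0.10 (adjusted p = 0.00767, exact permutation p = 0.0159) and held on leaving out each mouse, but with GC content offsets it was -0.16 (adjusted p = 0.328) and no longer called. In ABX 5xFAD mice Akt1 ran from 272 to 376 CPM with a median of 304, against ABX WT 1.22-fold higher (log2 0.28 ± 0.09, adjusted p = 0.0315, exact permutation p = 0.0260), with 3 of 6 mice above all WT mice. This last call ended without WT_ABX_909, WT_ABX_910, WT_ABX_911, FAD_ABX_1452, FAD_ABX_1460 or FAD_ABX_1482 (adjusted p = 0.0505 to 0.113), with GC content offsets (0.10, adjusted p = 0.412), library size alone (0.0939) and only the groups compared (0.108). In ABX 5xFAD mice the markers of border-associated macrophages were higher than in ABX WT. Summed microglial markers were lower, without overlap (30041 to 35373 against 37209 to 43340 CPM). The part of both sums in the results for Akt1 and Rptor was not tested.

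Rps6kb1 (chr11:86498871-86544805, minus strand), the S6 kinase that mTORC1 activates, was called in no comparison by edgeR as reported and had the smallest spread of the set. Its group means ran from 61.1 CPM (GF 5xFAD) to 75.1 CPM (ABX WT). The 5xFAD difference was -0.11 (95% interval -0.34 to 0.13) under SPF, -0.16 (-0.37 to 0.06) under GF and -0.11 (-0.31 to 0.08) in ABX mice. With library size alone the average over conditions was called (-0.21, adjusted p = 0.0124). Of the direct mTORC1 substrates in the set, Eif4ebp1 was called between genotypes as reported and Rps6kb1 was not. The difference between these genes was not tested.

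The wider pathway was read from lists of other genes, chosen with earlier results of these data known. Among all genes tested, 3.73% rose and 0.837% fell in 5xFAD under SPF, 9.43% rose and 6.2% fell under GF, and 9.45% rose and 4.98% fell in ABX mice. Ranges of list counts and medians below are over the alternative settings at an adjusted p under 0.05, single mice left out aside. Of 11 further complex subunits and inhibitors, 1 rose in 5xFAD under SPF, 2 under GF and 2 in ABX mice, and none fell. Prr5l, which encodes a partner of rictor, rose in each: its mean was 23.8 against 9.02 CPM under SPF (log2 1.40, adjusted p = 0.00980), 32.0 against 8.91 CPM under GF (1.84, adjusted p = 1.82e-04) and 24.1 against 5.96 CPM in ABX mice (2.02, adjusted p = 1.95e-05). The 5xFAD mice (16.0 to 57.7 CPM) were all above the WT mice (3.31 to 14.8 CPM), and only the SPF call ended on leaving out a mouse (FAD_SPF_1144, adjusted p = 0.0555). The other was Fkbp1a, which encodes the protein FKBP12 that binds rapamycin, with 183 against 119 CPM under GF (0.62, adjusted p = 1.43e-05) and 129 against 109 CPM in ABX mice (0.24, adjusted p = 0.0478), the latter lost on leaving out any of 18 mice. The median of these 11 genes was -0.09, -0.11 and 0.16 under SPF, GF and ABX. Over the settings 1 to 3 rose in ABX mice, and the medians ran from -0.24 to -0.08 under GF and from 0.07 to 0.24 in ABX mice.

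**Figure D4:**
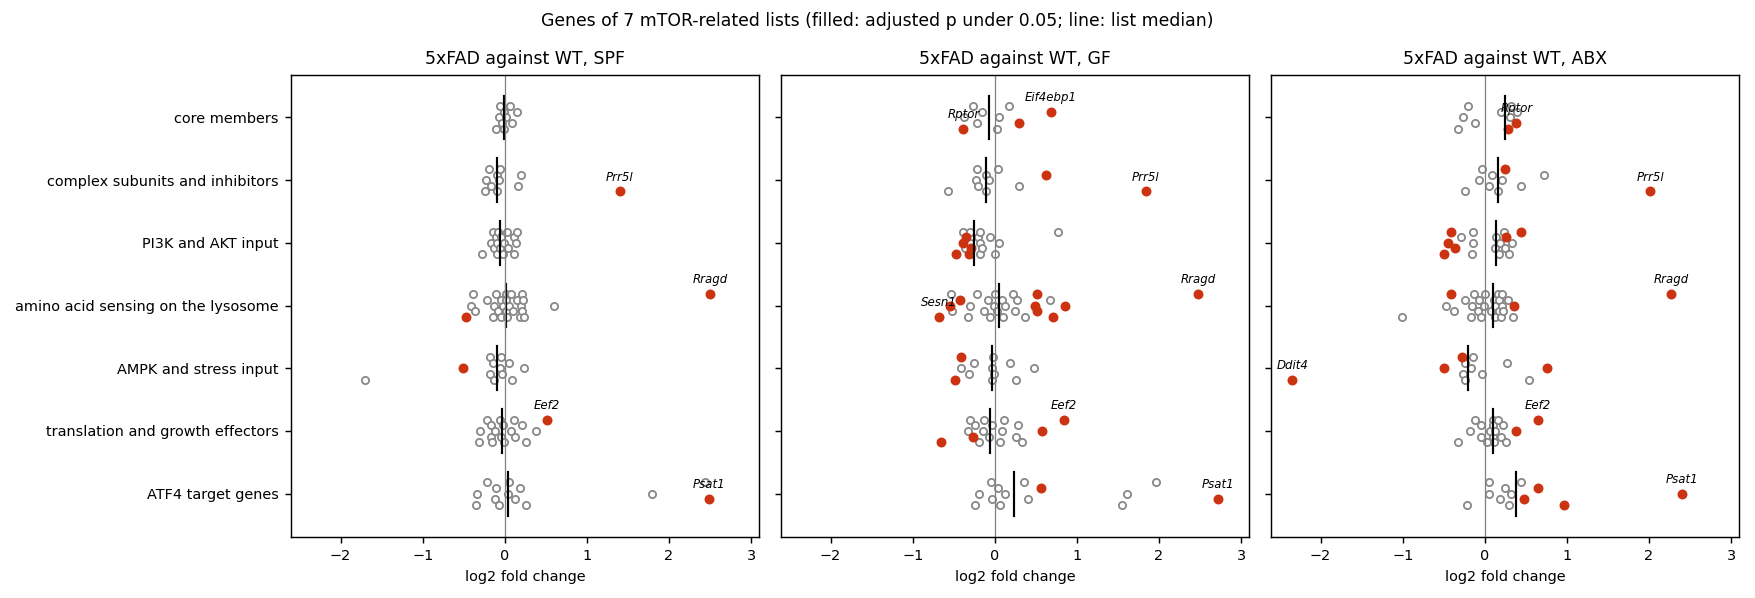
Log2 fold change, 5xFAD against WT, of the genes of 7 lists in each housing condition, filled where the adjusted p was under 0.05, with a line at the list median. Prr5l, Rragd, Psat1 and Eef2 were filled and above 0 in all 3 panels. Asns and Trib3 in ABX mice lie beyond the right edge, since ABX WT mice had almost no counts of them.

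Amino acid sensing on the lysosome feeds mTORC1 through the Rag GTPases. Of 28 genes tested there, 1 rose and 1 fell under SPF, 6 rose and 3 fell under GF, and 2 rose and 1 fell in ABX mice (list medians 0.02, 0.06 and 0.10). Over the settings 1 to 2 rose and 0 to 3 fell under SPF, 5 to 7 and 1 to 4 under GF, and 2 and 0 to 2 in ABX mice, and the GF median was -0.07 with library size alone. Rragd, one of the Rag GTPases, rose in each, from 1.51 to 8.62 CPM (log2 2.50), from 1.66 to 9.24 CPM (2.48) and from 1.30 to 6.22 CPM (2.27), with adjusted p = 1.74e-04, 9.41e-05 and 9.98e-05. Rragd in every 5xFAD mouse (3.59 CPM or more) was above every WT mouse (2.98 CPM or less). Under GF, Lamtor4 of the Ragulator scaffold rose (0.86, adjusted p = 3.91e-04) and Sesn1, a leucine sensor that restrains mTORC1, fell (-0.69, adjusted p = 8.55e-05). Mios, a subunit of GATOR2, also fell there (-0.55, adjusted p = 0.0305), a call lost on leaving out any of 7 mice. In ABX mice Flcn, which acts on RagC and RagD, rose (0.36, adjusted p = 0.00186). Slc38a9, the lysosomal arginine sensor, fell under SPF (-0.47, adjusted p = 0.0473, lost on leaving out any of 22 mice) and in ABX mice (-0.41, adjusted p = 0.0134, 0.0720 without WT_ABX_911).

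Of 18 genes of the PI3K and AKT input, none was called under SPF, 5 fell and none rose under GF, and 2 rose and 4 fell in ABX mice (list medians -0.05, -0.25 and 0.13). With library size alone as scaling, 10 fell under GF, and with gene length offsets 3 fell, while of all genes 1919 and 813 fell under these settings, beside 949 as reported. In ABX mice 0 to 4 rose and 1 to 4 fell over the settings, with a median of 0.03 under GC content offsets. Pik3r5, a regulatory subunit of PI3K gamma, fell under GF (-0.48, adjusted p = 0.0118, 0.0865 without WT_GF_199), as did Pik3ap1, an adaptor of PI3K (-0.39, adjusted p = 0.0391, lost without any of 6 mice). In ABX mice Pik3r1, a regulatory subunit of PI3K, fell (-0.45, adjusted p = 0.00911), and Insr, the insulin receptor, fell as well (-0.49, adjusted p = 0.0132, 0.0606 without WT_ABX_932), whereas Pik3r2 (0.44, adjusted p = 0.0174, 0.0698 without WT_ABX_911) and Inpp5d (0.25, adjusted p = 0.0368, lost without any of 6 mice) rose. Inpp5d encodes SHIP1, a phosphatase that opposes PI3K.

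Of 12 genes of the AMPK and stress input, 1 fell under SPF, 2 fell under GF, and 1 rose and 3 fell in ABX mice (list medians -0.10, -0.03 and -0.20). Over the settings 0 to 1 rose and 1 to 3 fell under GF, and 0 to 1 rose and 2 to 5 fell in ABX mice, where the median ran from -0.28 to -0.07. Prkab1, an AMPK subunit, fell under SPF (-0.52, adjusted p = 0.00744, 0.0891 without FAD_SPF_1144) and GF (-0.49, adjusted p = 0.00170). Prkaa1, the catalytic subunit, fell under GF (-0.41, adjusted p = 0.0259, lost without any of 5 mice). In ABX mice Gsk3b fell (-0.49, adjusted p = 5.46e-04) and Stk11, which encodes the AMPK kinase LKB1, rose (0.76, adjusted p = 0.0324, lost without any of 6 mice). Ddit4, an inhibitor of mTORC1 induced by stress, was at 1.55, 2.52, 2.99, 25.3 and 29.3 CPM in ABX WT mice and at 1.62 to 3.51 CPM in ABX 5xFAD mice, so its fall there (-2.34, adjusted p = 0.0297, lost without any of 5 mice) came with a gap between 2 WT mice and the rest.

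Of 18 genes of translation and growth effectors, 1 rose under SPF, 2 rose and 2 fell under GF, and 2 rose in ABX mice (list medians -0.04, -0.06 and 0.10). Over the settings 0 to 2 fell under SPF, 1 to 5 under GF and 0 to 1 in ABX mice, and the medians in GF and ABX mice ran from -0.18 to 0.01 and from 0.02 to 0.11. Eef2, the elongation factor eEF2, rose in each, with means of 319 against 224 CPM under SPF (0.51, adjusted p = 0.0128, 0.152 without FAD_SPF_1144), 418 against 234 CPM under GF (0.84, adjusted p = 8.61e-06) and 303 against 194 CPM in ABX mice (0.64, adjusted p = 9.33e-05). Its inhibitory kinase Eef2k fell under GF (-0.65, adjusted p = 3.83e-04), where the initiation factor Eif4b rose (0.57, adjusted p = 0.00177) and Tfe3, a transcription factor of lysosomal genes, fell (-0.27, adjusted p = 0.0434, lost without any of 10 mice). Larp1, which represses translation of ribosomal protein mRNAs, rose in ABX mice (0.38, adjusted p = 0.0180, lost without WT_ABX_910 or FAD_ABX_1460, at 0.0545 to 0.0570).

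ATF4, a transcription factor, lies downstream of mTORC1 and also of the integrated stress response. Of 14 genes tested, its target genes and Atf4 itself, 1 rose under SPF, 2 under GF and 6 in ABX mice, and none fell (list medians 0.04, 0.24 and 0.38). Atf4 was not called in any as reported (-0.34, -0.05 and -0.21). The GF median was 0.08 with at least 10 counts in every library, which kept 11 of these genes, and 0.11 with library size alone, where 1 fell. In ABX mice 4 rose and 1 fell with GC content offsets, and 4 to 8 rose over the settings, while voomWithQualityWeights called 1 lower under SPF. Psat1, an enzyme of serine synthesis, rose in each: 134 against 23.9 CPM under SPF, 247 against 37.5 CPM under GF and 104 to 142 CPM in ABX 5xFAD mice against 20.6 to 27.0 CPM in ABX WT mice. The log2 differences of Psat1 were 2.48 (adjusted p = 1.98e-12), 2.72 (4.10e-13) and 2.40 (3.56e-13). Aldh18a1, of proline synthesis, rose under GF (0.57, adjusted p = 0.0153, 0.0598 without WT_GF_199). Asns in ABX mice was at 0 counts in 4 of 5 WT mice and 1 count in the other, and at 0.531 to 3.46 CPM in 5xFAD. Trib3 was at 0 to 0.231 CPM in ABX WT and at 0.519 to 2.15 CPM in ABX 5xFAD.

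The mTOR gene list that the study drew from these same samples is not independent evidence of a direction, and Eif4ebp1 is the only member of the 10 in it. Its 17 ribosomal genes, left out of the set described here, rose in 6 cases under SPF, 17 under GF and 6 in ABX mice (list medians 0.58, 1.06 and 0.35), with 5 to 14 under SPF over the settings. Its other 36 genes held 4 that rose and 4 that fell under SPF, 12 and 10 under GF, and 12 and 11 in ABX mice (list medians -0.13, 0.03 and -0.08). Over the settings these were 4 to 11 and 2 to 11 under SPF, and 8 to 12 and 8 to 14 in ABX mice. Of these other genes, Prr5l, Fkbp1a, Prkab1, Pik3r1, Pik3r5 and Eif4b also stand in the lists above, so they are counted in both places.

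For the 2 members with the widest range of group means, the genes with the most similar pattern over the 6 groups were listed as a description. For Eif4ebp1 these were Timm13, Med28 and Ndufb7, with root mean square differences of 0.0596, 0.0683 and 0.0725 on the log2 scale, where the median over 8929 genes was 0.391. For Mlst8 they were Cand2, Galt and E130309D02Rik (0.0415, 0.0471 and 0.0498, median 0.264).

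The libraries differed along GC content and gene length across all genes, and the members lie at different points of both scales. Akt1 (59.7% GC), Rptor (56.5%), Tsc2 (54.7%), Mlst8 (54.7%) and Mtor (54.2%) are in the tertile of tested genes richest in GC, Rheb (44.7%), Rictor (42.5%) and Rps6kb1 (39.2%) in the poorest, and Eif4ebp1 (48.2%) and Tsc1 (51.7%) between. In ABX against GF WT mice the median log2 fold change was 0.22 over the 5023 genes poorest in GC and -0.22 over the 5023 richest. For 5xFAD against WT in ABX mice these medians were -0.18 and 0.15, and for GF against SPF 5xFAD -0.18 and 0.19. The calls of Akt1 in these 3 comparisons and of Rptor in the first 2 had the sign of the GC-rich genes, while Rptor was not called for GF against SPF 5xFAD and was at -0.12 there. With offsets for the GC trend of each library, the 3 calls of Akt1, that of Mlst8, and those of Rptor within ABX mice and for ABX against GF WT ended, as given above, and Rptor was called higher in ABX than in GF 5xFAD mice (0.32, adjusted p = 0.0300). With these offsets the Rptor interaction of ABX and GF remained called (0.65, adjusted p = 0.0193), and Eif4ebp1 remained called in all 4 comparisons. Among the other pathway genes named, GC content offsets ended the calls of Mios and Prkaa1 under GF and of Fkbp1a, Pik3r2, Inpp5d, Slc38a9, Stk11 and Larp1 in ABX mice. With only the groups compared, Mios and Prkaa1 under GF and Fkbp1a, Pik3r1, Pik3r2, Inpp5d, Slc38a9 and Larp1 in ABX mice were not called. Fkbp1a, Inpp5d, Ddit4 and Larp1 in ABX mice were not called without FAD_ABX_1151 and FAD_ABX_1482.

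Gene length gave another trend: for 5xFAD against WT under GF the median was 0.09 over the shortest tertile and -0.10 over the longest, and for GF against SPF 5xFAD 0.19 and -0.15. Eif4ebp1 (2196 bases) is in the shortest tertile and Rptor (13471 bases) in the longest. With length offsets Eif4ebp1 stayed called under GF (0.63, adjusted p = 0.00541) and for GF against SPF 5xFAD (0.86, adjusted p = 0.00349), whereas Rptor under GF fell short, as did Mios and Tfe3 under GF and Fkbp1a in ABX mice. Rheb rose for GF against SPF 5xFAD with length offsets (0.45, adjusted p = 0.0288), GC offsets (0.41, adjusted p = 0.0215) and voomWithQualityWeights (0.29, adjusted p = 0.0173), while the value as reported was 0.25 (adjusted p = 0.133).

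**Figure D5:**
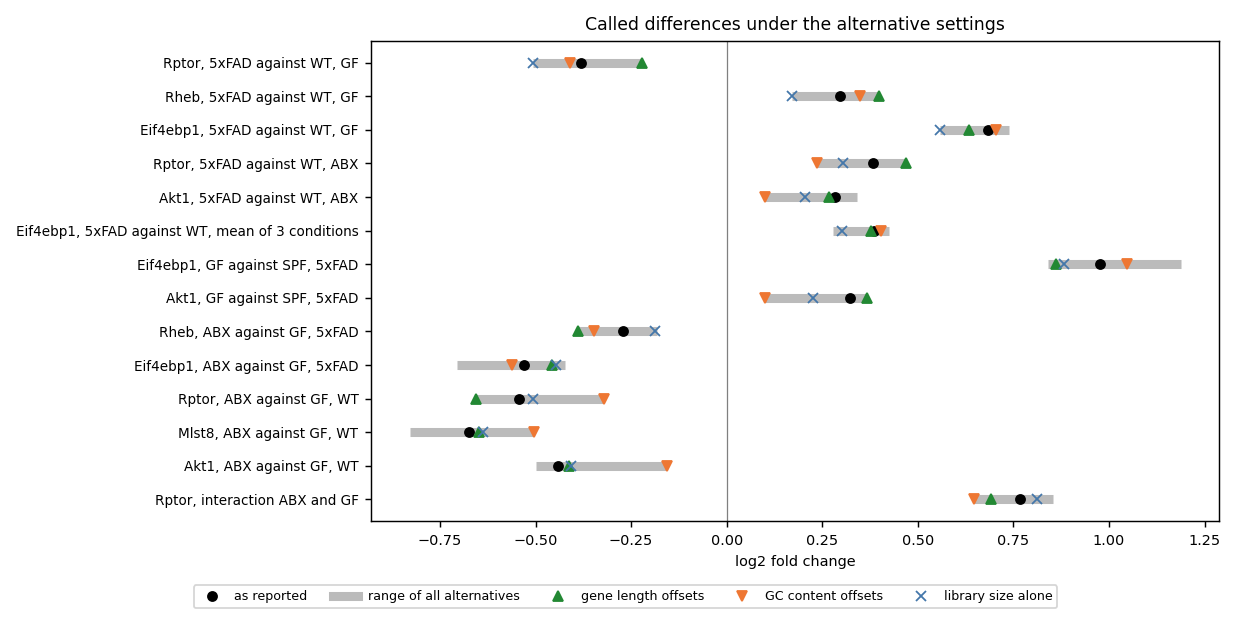
Log2 fold change of the 14 called differences of the members (black), with the range over all alternative settings (grey bar) and the values with GC content offsets, gene length offsets and library size alone. No bar crosses 0, and GC offsets bring Akt1 closest to it, to 0.10 for GF against SPF 5xFAD mice.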

How the data were processed

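Hippocampal microglia of 28 mice, 1 library per mouse, were sequenced by the authors from SMARTer and Nextera XT libraries. Per the labels and the methods, reads passed through CASAVA 1.8.2 and FastQC 0.11.8, were aligned with STAR 2.7.2 and counted with featureCounts 1.6.2 on GENCODE M21, and the submitters' notes also name limma 3.40.6 and edgeR 3.26.7. The values deposited by the authors are counts of reads in each gene without normalization. The methods give the GRCm38 mouse genome and the labels a human build. Of 46484 gene names found in GENCODE M21, 88.3% had the table's start and end there within 1 base, and coordinates are printed on GRCm38. The 92 spike-in rows were left out.

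Groups came from the sample titles. Mouse FAD_GF_201 is GF 5xFAD by title and genotype, although its description reads WT. The counts were tested with edgeR 4.0.16 (R 4.3.3): genes were kept by filterByExpr (count minimum 10, total minimum 15), scaled by TMM, and fitted by glmQLFit with 1 term per group over all 28 mice. The quasi-likelihood tests covered 13 contrasts and an F test, adjusted by Benjamini-Hochberg over 15298 genes with a threshold of 0.05. A log2 fold change is the fitted coefficient, and CPM are TMM-scaled. CPM per kb divides by the gene length in the table, and depth was 14441610 to 29977395 counts. Called members also had an exact two-sided permutation test on log2 CPM (prior count 2). Intervals are 95% intervals of the fit. The replicates are different mice, and no 2 libraries of a group agreed within sampling noise. The script was checked on simulated data.

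The members and the lists were chosen with earlier results of these data known. Of the lists as first written, 4 genes are not reported here and were left out of the lists' counts and sums. Named genes are the 10 members, up to 2 genes with the largest rise and 2 with the largest fall among those called in each list and comparison described, and the 3 genes most like the 2 members with the widest range of group means (genes with a mean of at least 3 log2 CPM). Psat1 in ABX mice is given beyond that rule, to complete its values. Alternatives were RLE size factors, library size alone, dropping the filter on low counts, requiring 10 or more counts per library, voomWithQualityWeights (limma 3.58.1), DESeq2 1.42.0, only the groups compared, offsets for gene length and for GC content (known for 98.5% of tested genes; lowess span 0.3), adjusted p under 0.1, leaving out each mouse, and leaving out FAD_ABX_1151 and FAD_ABX_1482 together. Figures were drawn with matplotlib 3.10.9.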

Additional observations from a re-analysis of the deposited data

Results flagged for a closer look

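Of the 50 combinations of member and group with 4 to 6 mice that were examined for a mouse far from the others, 3 stood out, and chance alone flags about 1 in 20 such groups. In SPF WT mice, Rptor in WT_SPF_912 was the lowest value at 214 CPM, and its gap to the nearest mouse was 0.811 of the group's range. In the same group, Rheb in WT_SPF_912 was the highest value at 106 CPM, with a gap of 0.768 of the range. In ABX 5xFAD mice, Rictor in FAD_ABX_1482 was the lowest value at 45.0 CPM, with a gap of 0.632 of the range.

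The difference of Rptor between 5xFAD and WT mice differed between ABX and GF housing, with an interaction of 0.77 on the log2 scale (edgeR's quasi-likelihood test, adjusted p = 0.0157). All 5 GF 5xFAD mice were below all 4 GF WT mice, and 4 of 6 ABX 5xFAD mice were above all 5 ABX WT mice.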

How the results depend on the processing

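No paired analysis was possible: the study describes the WT mice as littermates, but the labels used here do not give the litter of a mouse. Over 130 results of the members and 5060 values under the alternatives, 4893 kept their side of the threshold, 117 lost a call, 50 gained one and 0 reversed. Eif4ebp1 for GF 5xFAD against WT, for the mean of the 3 conditions and for GF against SPF 5xFAD, and the Rptor interaction of ABX and GF, kept their calls under each alternative run. Library size alone shifted the median of all genes by -0.125 for 5xFAD against WT under GF and split the calls there into 1107 higher and 1919 lower, in place of 1442 and 949.

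The counts of members called moved by more than 1.5 times as follows, and smaller changes are given for the comparisons of genotype. Apart from the added or removed samples, genes and thresholds that define a setting, the cause was not tested. For 5xFAD against WT under GF (3 as reported) the count was 2 with library size alone, no filter, voomWithQualityWeights, only the groups compared or length offsets. In ABX mice (2) it was 0 with only the groups compared, 0 with GC offsets, 3 with library size alone (1 higher and 2 lower) and 3 at adjusted p under 0.1 (all higher). For the mean of 3 conditions (1) it was 2 with RLE size factors, 4 with library size alone (1 higher and 3 lower), 2 with at least 10 counts in every library, 3 with voomWithQualityWeights, 2 with DESeq2, 2 without FAD_ABX_1151 and FAD_ABX_1482, 2 with length offsets, 2 with GC offsets and 4 at adjusted p under 0.1. For GF against SPF 5xFAD (2) it was 1 with library size alone, 1 with no low-count filter and 4 with voomWithQualityWeights, which called 25.3% of all genes there. For ABX against GF 5xFAD (2) it was 1 with RLE, no filter or voomWithQualityWeights. It was 0 there with library size alone or only the groups compared (11.3% and 1.89% of all genes). For GF against SPF WT (0) it was 2 with voomWithQualityWeights, 1 with DESeq2, 3 with only the groups compared and 1 with length offsets. All genes were called at 10.7%, 4.71%, 9.6% and 2.34% there. For ABX against GF WT (3) it was 0 with GC offsets (1.65% of all genes). For the interaction of ABX and GF (1) it was 2 with at least 10 counts, voomWithQualityWeights, DESeq2, without the 2 mice, or at adjusted p under 0.1. For the F test (3) it was 6 with library size alone, 6 with voomWithQualityWeights and 5 with length offsets.

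Leaving out each mouse in turn gave 0 to 0 members called under SPF, 1 to 3 under GF, 0 to 3 in ABX mice and 1 to 3 for the mean of 3 conditions. It gave 1 to 2 for GF against SPF 5xFAD, 0 to 0 for ABX against SPF 5xFAD and 0 to 2 for ABX against GF 5xFAD. In WT mice it gave 0 to 0 for GF against SPF, 0 to 0 for ABX against SPF and 2 to 3 for ABX against GF. The interactions with SPF stayed at 0 to 0, that of ABX and GF ran from 1 to 2, and the F test from 3 to 5. With 3 SPF 5xFAD mice, differences against that group are the least precise, and Mlst8, at 141 to 663 counts per library, has the least depth of the members.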
